A study of Mus musculus with 8 samples.

Results

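The 32 genes described here are genes of meningeal fibroblasts and of the collagen matrix, read in RNA from the mouse dentate gyrus as a mark of the membranes that cover the brain. They were chosen by name, and each was represented by the probe of that symbol with the highest mean spot intensity over all arrays. All 32 were found on the array and all 32 passed the filter on dim probes, and the array named 19321 genes in all. Tissue came from the dorsal dentate gyrus of male mice 8 to 12 weeks old, with the strain given as C57BL/6J for every sample. The wild-type group (WT) and the group with genotype Cav3.1 KO, which lacks the pore-forming subunit of a T-type calcium channel, had 4 single-colour arrays each. No promoter, Cre line or treatment is named in the labels, which also do not state whether separate animals gave the 4 samples of a group. The p-values therefore cover the spread among these samples alone, and that spread may be technical.

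The meninges are sheets of fibroblasts that wrap the brain and dip into the hippocampal fissure beside the dentate gyrus. Their fibroblasts secrete fibrillar collagens and small leucine-rich proteoglycans, which bind collagen fibrils, and cells of the outer layers carry transporters and make retinoic acid. Neurons make little of this matrix, so in dissected brain tissue these transcripts are commonly read as a sign of attached meninges and vessels, while the choroid plexus shares several of them.

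Values are normalised log2 intensities, listed in the order of replicates 1 to 4, and a negative difference means a lower mean in Cav3.1 KO. Blank spots averaged 53.0 to 63.4 by array, and 85.4% to 93.0% of probes were detected. The file headers give, for each array, the straight lines that relate its 3 scans. The slope of the first line was 0.478 to 0.480 on WT replicates 1, 2 and 4 and Cav3.1 KO replicate 1 (scan set A), and 0.485 to 0.486 on WT replicate 3 and Cav3.1 KO replicates 2, 3 and 4 (scan set B). Scan set and group thus partly coincide, and a difference that turned sign between the sets is given with both values where it is described. Set A holds 1 knockout array (replicate 1) and set B 1 WT array (replicate 3), on which each difference within a set rests. Between the sets, with the group in the model, 1 of 32 members had an unadjusted limma p under 0.05. So did 1839 of 21150 probes tested, and 0 probes passed at an adjusted p of 0.05. The targeted gene Cacna1g differed by -0.08 (SE 0.0508, limma adjusted p 0.816), and its probe does not check the genotype, because its place relative to the deletion is not known here. The granule neuron genes C1ql2, Calb1 and Rasl10a, which mark the dissected tissue, read between 8.08 and 10.28 on every array. They were not level across the groups: C1ql2 and Rasl10a were called lower in Cav3.1 KO, as given with the other granule neuron markers. Calb1 differed by 0.34 (SE 0.127, limma adjusted p 0.523). The probe for the granule neuron marker Prox1 read 5.95 to 6.08, near the blank level.

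All 32 members were detected on all 8 arrays, where detection means an intensity above the 95th percentile of the blank spots. The signal was nevertheless uneven. Probes of 17 members were brighter than the median probe of the array (mean intensity 87.4, against 57.7 for blank spots) and those of 15 were dimmer. Brightness depends on the probe and does not rank the genes. The 15 dim members included Col6a1, Col6a2, Col6a3, Col4a1, Col15a1, Col1a1, Col5a1, Tbx18 and Foxd1, with mean intensities of 1.12 to 1.34 times the blank level. For these probes an intensity close to the blank level limits what can be seen, and a small spread is no measure of constancy.

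None of the 32 members passed the test between the groups (0 of 32 by limma at an adjusted p of 0.05, against 0.288% of all probes tested, and 0.0898% in the lower direction). Unadjusted, 5 of 32 had a p under 0.05, against 8.1% of all probes tested. Of these, 4 were lower in Cav3.1 KO, against 4.34% of all probes tested, and Col4a2 was higher. A lower mean in Cav3.1 KO was found for 22 members and a higher one for 10, where 50.7% of all probes tested had a lower mean. The median difference was -0.0904 over the members and -0.0008 over all probes tested. Among the 17 brighter members 14 had a lower mean and 3 a higher one, and among the 15 dimmer ones 8 were lower and 7 higher. A lower value in bulk tissue cannot tell fewer cells of a type from less RNA per cell.

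**Figure D1:**
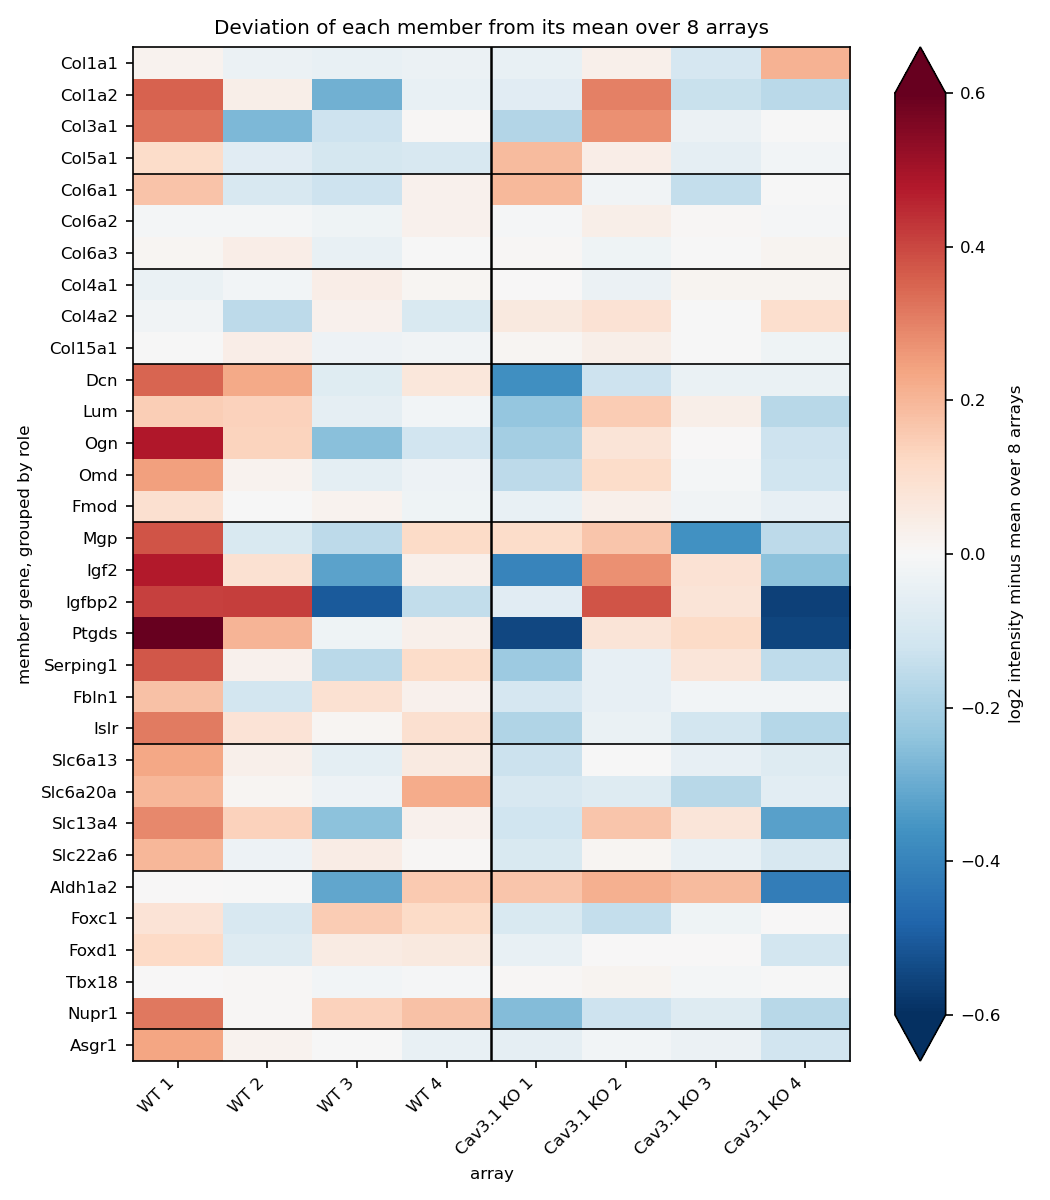
Each row is a member, each column an array, and the colour is the log2 intensity minus that gene's mean over the 8 arrays, with black lines between roles and between the groups. WT replicate 1 is the reddest column, with 28 of 32 members above their own mean, and on Cav3.1 KO replicate 4 it was 5 of 32. Colours are capped at 0.6 in either direction.

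Within each group the arrays differed widely in the level of these transcripts. WT replicate 1 held the highest value of 18 of 32 members, while it held the highest value of 9.94% of all probes tested. Cav3.1 KO replicates 1 and 4 each held the lowest value of 8 of 32 members, where they held that of 16.9% and 13.9% of all probes tested. Over the 17 brighter members, the median deviation from a gene's own mean was 0.33 on WT replicate 1, 0.037 on WT replicate 2, -0.12 on WT replicate 3 and 0.032 on WT replicate 4. On Cav3.1 KO replicates it was -0.18, 0.085, -0.0001 and -0.16. The values of the groups overlapped, and the highest array of each group stood above the lowest of the other.

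The spread between arrays of 1 group was wide for these genes. The median within-group SD was 0.103 over the 32 members and 0.0683 over all probes tested. Among probes brighter than the median it was 0.221 for the 17 members and 0.101 for all probes tested. An SD above the 90th percentile of all probes was found for 11 of 32 members, against 10% of all probes tested, and all 11 were among the brighter ones. They were Dcn, Col1a2, Col3a1, Mgp, Igf2, Igfbp2, Ptgds, Slc13a4, Ogn, Aldh1a2 and Serping1. Between the lowest and the highest of the 8 arrays these 11 genes varied from 1.51-fold (Col3a1 and Serping1) to 2.37-fold (Ptgds).

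Among the fibrillar collagens, which form the tensile fibres of connective tissue, Col1a2 and Col3a1 varied from array to array within both groups. Col1a2, a chain of type I collagen, read 7.66, 7.34, 7.02 and 7.26 in WT and 7.24, 7.61, 7.17 and 7.14 in Cav3.1 KO. Col3a1, the chain of type III collagen, read 7.15, 6.55, 6.70 and 6.83 in WT and 6.65, 7.10, 6.79 and 6.82 in Cav3.1 KO. Replicate 1 of WT and replicate 2 of the knockout were the highest arrays for both genes, and the groups overlapped. The difference of Col1a2 was -0.03 (SE 0.148, 95% interval -0.37 to 0.31, adjusted p 0.996), and that of Col3a1 was 0.03 (SE 0.138, adjusted p 0.996) in the limma fit. Within scan sets A and B the differences were -0.18 and 0.29 for Col1a2, and -0.20 and 0.20 for Col3a1. A second, dim probe of Col3a1 differed by 0.06 (SE 0.0404). Col1a1, the partner chain of Col1a2, stood at 5.99 to 6.30 and did not follow Col1a2, with its highest value on Cav3.1 KO replicate 4. Col5a1, a chain of the type V collagen that nucleates fibrils, read 6.07 to 6.28 in WT, against 6.12 to 6.36 in the knockout.

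The chains of type VI collagen, which forms beaded microfilaments around cells, gave little signal. Col6a1 read 6.06 to 6.36 in WT, against 6.04 to 6.38 in the knockout, and Col6a2 and Col6a3 spanned 0.064 and 0.083 on the log2 scale over all 8 arrays. Col4a2, a chain of the type IV network under endothelium and pia, read 6.84, 6.71, 6.89 and 6.77 in WT and 6.92, 6.95, 6.86 and 6.97 in Cav3.1 KO, so that 1 WT array stood within the Cav3.1 KO range. Its difference was 0.12 (SE 0.0447, 95% interval 0.020 to 0.23, adjusted p 0.493 in the limma fit). It was 0.15 within scan set A and 0.037 within scan set B. Its partner Col4a1 and Col15a1, a collagen of the basement membrane zone, read 5.94 to 6.04 on every array and spanned under 0.1 on the log2 scale.

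All 5 small leucine-rich proteoglycans had a lower mean in Cav3.1 KO, and none passed the test. Dcn encodes decorin, which binds and spaces collagen fibrils. It read 8.00, 7.88, 7.58 and 7.72 in WT and 7.28, 7.53, 7.61 and 7.62 in Cav3.1 KO. WT replicate 3, the lowest WT array, fell inside the Cav3.1 KO range, and Cav3.1 KO replicate 1 was the lowest of all. The difference was -0.28 (SE 0.106, 95% interval -0.53 to -0.041, limma adjusted p 0.509). It was -0.58 within scan set A, with 1 knockout array, and 0.0064 within scan set B, with 1 WT array.

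Ogn, which encodes osteoglycin, read 7.05, 6.71, 6.32 and 6.46 in WT and 6.37, 6.65, 6.58 and 6.45 in Cav3.1 KO. Its range was wider in WT (SD 0.321) than in Cav3.1 KO (SD 0.126), and the difference was -0.12 (SE 0.150, limma adjusted p 0.966). It was -0.37 within scan set A, 0.23 within scan set B and 0.015 without WT replicate 1. Omd, which encodes osteomodulin, was dim and ran from 6.30 on WT replicate 1 to 5.89 on Cav3.1 KO replicate 1. Lum (lumican) read 6.75, 6.74, 6.55 and 6.59 in WT and 6.37, 6.76, 6.64 and 6.44 in Cav3.1 KO, again with overlap. Within scan sets A and B, Lum differed by -0.32 and 0.0624 and Omd by -0.24 and 0.0508. Fmod (fibromodulin) stayed between 5.85 and 5.99.

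**Figure D2:**
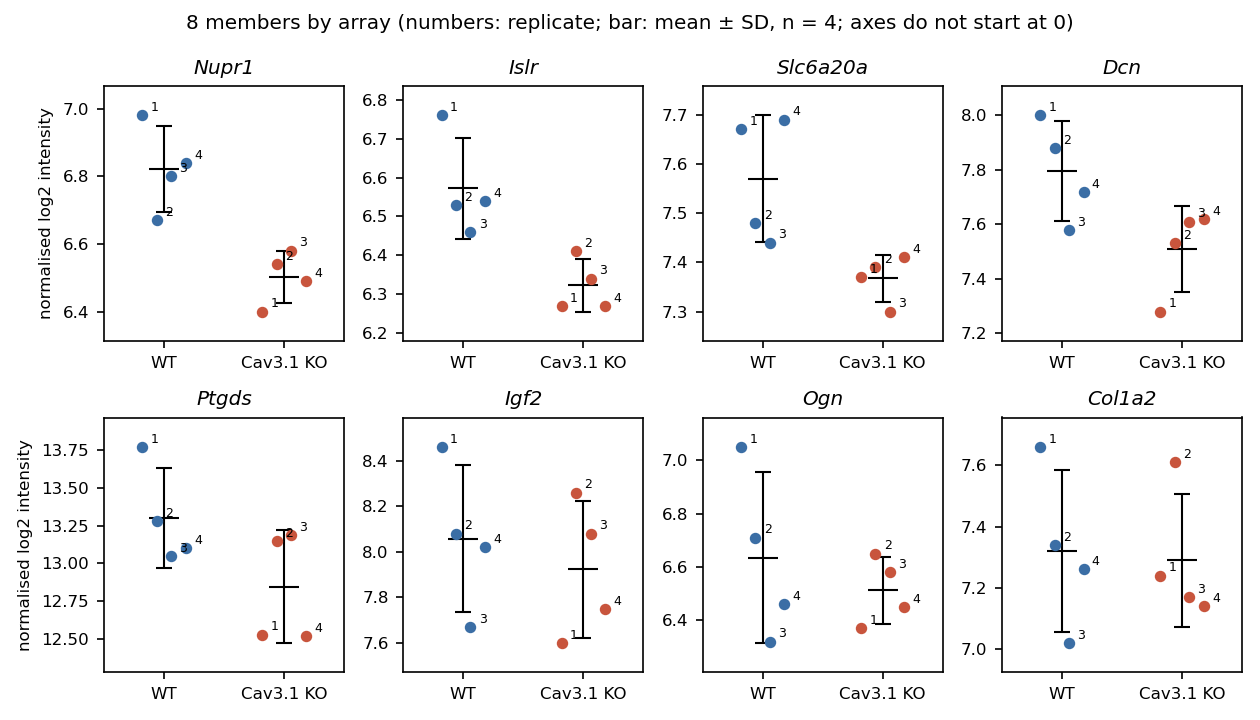
Each panel plots the normalised log2 intensity of 1 gene on the 4 WT and 4 Cav3.1 KO arrays, with replicate numbers beside the points and the mean ± SD (n = 4) as a bar; the axes do not start at 0. For Nupr1, Islr and Slc6a20a the groups do not overlap, whereas for Dcn, Ptgds, Igf2, Ogn and Col1a2 they do.

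The secreted proteins showed the widest spread. Ptgds, the lipocalin-type prostaglandin D synthase secreted into cerebrospinal fluid, read 13.77, 13.28, 13.05 and 13.10 in WT and 12.53, 13.15, 13.19 and 12.52 in Cav3.1 KO. Its lowest values were on Cav3.1 KO replicates 1 and 4, while replicates 2 and 3 lay inside the WT range. The difference was -0.45 (SE 0.214, 95% interval -0.94 to 0.041, limma adjusted p 0.673), with -0.85 within scan set A and -0.092 within scan set B. Ptgds is also made by oligodendrocytes and choroid plexus.

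Igf2, the growth factor expressed by meninges and choroid plexus, read 8.46, 8.08, 7.67 and 8.02 in WT and 7.6, 8.26, 8.08 and 7.75 in Cav3.1 KO. Igfbp2, a binding protein of insulin-like growth factors, read 9.16, 9.17, 8.25 and 8.60 in WT and 8.68, 9.13, 8.83 and 8.19 in Cav3.1 KO. For both genes the low arrays included replicate 3 of WT and replicate 4 of the knockout, and the high ones replicate 1 of WT and replicate 2 of the knockout. Their differences of -0.14 (SE 0.193) and -0.09 (SE 0.258) were smaller than the SDs within the groups, which ran from 0.305 to 0.451. Within scan set A, where Cav3.1 KO replicate 1 was the only knockout array, they were -0.59 and -0.29. Within scan set B, where WT replicate 3 was the only WT array, they were 0.36 and 0.47. Mgp, which encodes matrix Gla protein, an inhibitor of calcification, read 8.91, 8.44, 8.38 and 8.65 in WT and 8.64, 8.70, 8.17 and 8.37 in Cav3.1 KO. Serping1, the inhibitor of complement C1, and Fbln1, a fibulin of elastic matrix, differed by -0.17 (SE 0.111) and -0.09 (SE 0.0587). Serping1 differed by -0.39 within scan set A and by 0.12 within scan set B, and Mgp by -0.0217 and 0.0361. For these genes too the groups overlapped.

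For 3 of the 32 members the groups did not overlap, against 4.95% of all probes tested (2.53% with the lower values in Cav3.1 KO). All 3 were lower in Cav3.1 KO and none passed the test over all probes. Nupr1, a small nuclear protein induced by cellular stress, read 6.98, 6.67, 6.8 and 6.84 in WT and 6.4, 6.54, 6.58 and 6.49 in Cav3.1 KO. Its difference was -0.32 (SE 0.0672, 95% interval -0.47 to -0.16), with a limma adjusted p of 0.161. It was -0.43 within scan set A, -0.26 within scan set B and -0.26 without WT replicate 1. Islr, a secreted protein with leucine-rich repeats and an immunoglobulin domain, read 6.76, 6.53, 6.46 and 6.54 in WT and 6.27, 6.41, 6.34 and 6.27 in Cav3.1 KO. Its difference was -0.25 (SE 0.0655, limma adjusted p 0.261), with -0.34 within scan set A, -0.12 within scan set B and -0.19 without WT replicate 1. Slc6a20a, a transporter of proline and other imino acids, read 7.67, 7.48, 7.44 and 7.69 in WT and 7.37, 7.39, 7.30 and 7.41 in Cav3.1 KO. Its difference was -0.20 (SE 0.0618, limma adjusted p 0.367), with -0.24 within scan set A and -0.073 within scan set B. After plain subtraction of the blank level, which stretches dim signals, the differences of Nupr1, Islr and Slc6a20a were -0.67, -0.64 and -0.30.

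The bases upstream of these 3 genes are shown together with those of Col1a2, a collagen gene whose array values did not separate the groups. RefSeq windows of GRCm38.p6 were matched by symbol for 27 of the 32 members. Each line gives the 250 bases before the annotated start, 5′ to 3′ on the strand of the gene, and capitals mark matches on either strand to TATAAA (the TATA box), CCAAT (the CCAAT box), GGGCGG (the GC box) or TGATGCAA (a C/EBP and ATF element).
Nupr1, chr7:126625471-126625720, minus strand: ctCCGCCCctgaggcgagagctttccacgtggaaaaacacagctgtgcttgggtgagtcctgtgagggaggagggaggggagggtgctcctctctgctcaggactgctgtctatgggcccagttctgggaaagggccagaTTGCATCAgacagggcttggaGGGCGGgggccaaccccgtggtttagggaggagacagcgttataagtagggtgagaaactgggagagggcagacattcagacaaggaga
Islr, chr9:58158555-58158804, minus strand: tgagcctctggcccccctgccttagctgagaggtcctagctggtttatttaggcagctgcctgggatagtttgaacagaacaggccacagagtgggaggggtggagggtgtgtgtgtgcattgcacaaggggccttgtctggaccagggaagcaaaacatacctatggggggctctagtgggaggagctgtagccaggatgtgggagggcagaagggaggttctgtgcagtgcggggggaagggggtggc
Slc6a20a, chr9:123678833-123679082, minus strand: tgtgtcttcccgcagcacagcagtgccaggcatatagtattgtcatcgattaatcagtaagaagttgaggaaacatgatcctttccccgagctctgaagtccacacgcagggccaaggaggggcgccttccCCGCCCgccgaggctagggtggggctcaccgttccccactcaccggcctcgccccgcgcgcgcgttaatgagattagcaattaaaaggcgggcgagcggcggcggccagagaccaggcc
Col1a2, chr6:4505368-4505617, plus strand: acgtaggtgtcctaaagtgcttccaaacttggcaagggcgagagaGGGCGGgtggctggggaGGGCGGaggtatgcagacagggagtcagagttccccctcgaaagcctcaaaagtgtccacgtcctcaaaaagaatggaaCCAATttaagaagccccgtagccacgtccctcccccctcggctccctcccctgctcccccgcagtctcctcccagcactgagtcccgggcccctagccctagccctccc
The Nupr1 window held TGATGCAA, the letters of a joint element for C/EBP and ATF factors, on the minus strand 110 to 103 bases before the start. Of 32851 windows of this length in the table, 0.791% held those letters, and among the members with a window Nupr1 was the 1 of 27 that did. The GC box GGGCGG was found 2 times upstream of Nupr1, 1 time upstream of Slc6a20a and 2 times upstream of Col1a2, and 32.7% of all windows held it. CCAAT stood 109 to 105 bases before the Col1a2 start and was present in 33.8% of all windows. TATAAA, present in 12.4% of all windows, was in 0 of these 4, and the Islr window held none of the 4 motifs. No match overlapped another. These are matches of letters and show no binding of a factor.

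**Figure D3:**
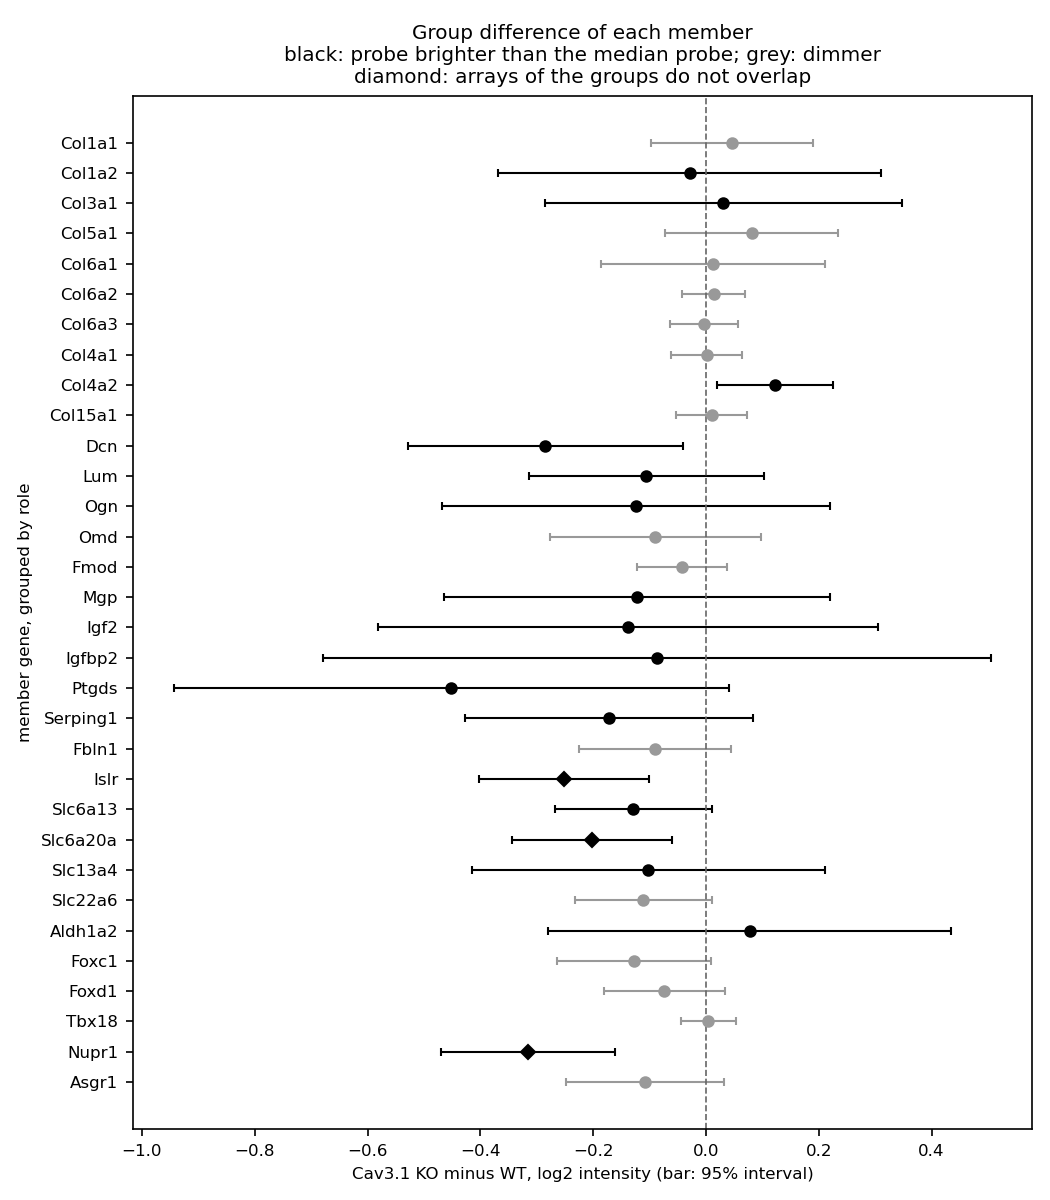
Points give the Cav3.1 KO minus WT difference in log2 intensity of each member with its 95% interval, black for probes brighter than the median probe and grey for dimmer ones, and diamonds mark the 3 genes whose groups do not overlap. Most black points lie left of 0, Nupr1 at -0.32, Islr at -0.25 and Slc6a20a at -0.20, while the collagens lie around 0, with Col4a2 at 0.12.

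The other 3 transporters were lower in Cav3.1 KO by their means, with overlapping groups. Slc13a4, a sulfate transporter of arachnoid and choroid plexus, read 7.31, 7.15, 6.77 and 7.04 in WT and 6.90, 7.18, 7.09 and 6.69 in Cav3.1 KO (difference -0.10, SE 0.136). Slc6a13, a transporter of GABA and taurine found in leptomeninges, read 6.65, 6.45, 6.36 and 6.47 in WT and 6.29, 6.41, 6.37 and 6.34 in Cav3.1 KO (difference -0.13, SE 0.0604). Slc22a6, a transporter of organic anions, differed by -0.11 (SE 0.0527). The limma adjusted p-values of these 3 genes were 0.972, 0.665 and 0.674. Within scan set B the direction turned for Slc13a4 (-0.27 in set A, 0.22 in set B) and for Slc6a13 (-0.23 and 0.013), whereas Slc22a6 was lower in both (-0.15 and -0.0898). The highest array was WT replicate 1 for these 3 genes and WT replicate 4 for Slc6a20a.

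Aldh1a2, the enzyme that makes retinoic acid in the meninges, read 7.54, 7.53, 7.22 and 7.69 in WT and 7.70, 7.74, 7.73 and 7.12 in Cav3.1 KO. Replicate 3 of WT and replicate 4 of the knockout were the low arrays, and the difference was 0.08 (SE 0.156, limma adjusted p 0.986). Foxc1, a forkhead factor required for formation of the meninges, read 6.29, 6.11, 6.37 and 6.33 in WT and 6.12, 6.07, 6.19 and 6.22 in Cav3.1 KO (difference -0.13, SE 0.0594, limma adjusted p 0.661). The forkhead gene Foxd1 read 5.82 to 6.04 and the T-box gene Tbx18 5.89 to 5.92, both close to the blank level. Asgr1, a lectin of hepatocytes and not a gene of meningeal fibroblasts by its known role, read 6.35 on WT replicate 1 and 6.00 to 6.13 on the other arrays. Its highest array was thus the one that held the highest value of 18 of 32 members, a count that includes Asgr1 itself.

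The members did not all follow the same course over the arrays. The mean of 8 matrix genes (Dcn, Lum, Ogn, Omd, Fmod, Col1a1, Col1a2 and Col3a1) served as a measure of the matrix signal. It was 6.88, 6.66, 6.52 and 6.60 in WT and 6.46, 6.73, 6.59 and 6.57 in Cav3.1 KO. As a description over 8 arrays, which share their groups and their dissections, Pearson's r with this mean, leaving out the gene itself, was above 0.7 for 14 of 32 members. Omd (0.959), Igf2 (0.947), Ogn (0.912) and Slc6a13 (0.901) followed it most closely. Col4a1 went the other way (-0.833) over a span of 0.079 on the log2 scale. Foxc1 (-0.022), Col1a1 (0.058), Aldh1a2 (0.195), Col4a2 (-0.205), Col5a1 (0.156) and the type VI chains (0.174 to 0.208) did not follow it. Of these, only Aldh1a2 and Col4a2 had a probe brighter than the median probe, and a low r on a dim probe may reflect its low signal.

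Choroid plexus is the tissue of the ventricles that makes cerebrospinal fluid. Its 12 tested markers, 9 of them brighter than the median probe, had a median within-group SD of 0.550. This compares with 0.221 over the 17 brighter members and 0.103 over all 32 members. Its marker Ttr read 14.83, 15.16, 12.25 and 14.13 in WT and 13.98, 14.97, 14.56 and 7.49 in Cav3.1 KO. The mean over the 12 tested markers ran from 6.77 to 8.07 in WT and from 6.20 to 7.94 in Cav3.1 KO. This mean was not scaled by gene, so Ttr, with the widest spread (SD 1.3 in WT and 3.53 in Cav3.1 KO), weighed most. Of the 12 markers, 11 had a lower mean in Cav3.1 KO. WT replicate 2 held the highest value of 10 of these 12 markers and WT replicate 1 of 0, whereas WT replicate 1 held the highest value of 18 members. The choroid plexus markers were nevertheless high on WT replicate 1 too, with a median deviation of 0.37, against 0.20 for the members. Their median deviation was 0.59 on WT replicate 2 and 0.46 on Cav3.1 KO replicate 2. Over the 8 arrays their mean had an r of 0.592 with the mean of the 8 matrix genes. Igfbp2 and Slc13a4 followed the mean of the choroid plexus markers with r of 0.956 and 0.933, Lum with 0.805 and Aldh1a2 with 0.755, above their r with the matrix genes. Dcn (0.398), Slc6a20a (0.200), Nupr1 (0.246) and Slc22a6 (0.387) were closer to the matrix mean. So were Igf2 (0.743), Ptgds (0.710), Omd (0.667) and Ogn (0.647), which followed the choroid plexus mean as well. Of the 32 members, 8 had a higher r with choroid plexus than with the matrix mean, and 7 had an r with choroid plexus above 0.7. The part of choroid plexus in the differences of the members was not tested.

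**Figure D4:**
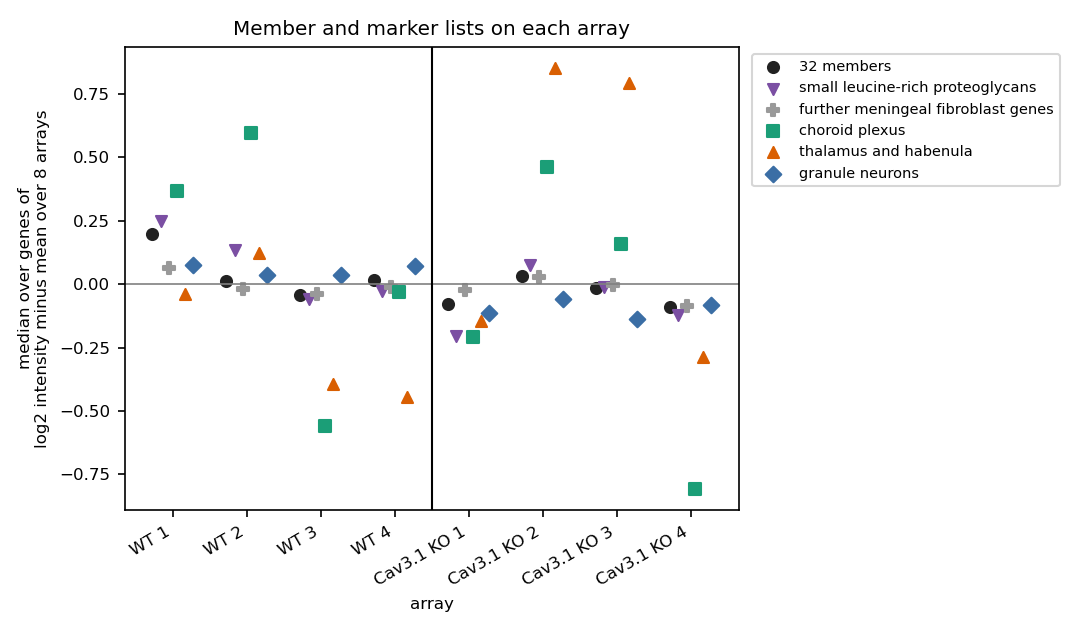
Each point is the median over the genes of a list of the log2 intensity minus the gene's mean over 8 arrays, by array, with WT on the left of the vertical line and Cav3.1 KO on the right. The members peak on WT replicate 1 (0.20), where the choroid plexus markers are also high (0.37). The choroid plexus markers peak on WT replicate 2 (0.59) and the markers of thalamus and habenula on Cav3.1 KO replicates 2 and 3 (0.85 and 0.79).

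Markers of thalamus and habenula had list means of 6.59 to 7.17 in WT, against 6.74 to 7.76 in the knockout, with replicates 2 and 3 of the knockout on top, and 10 of 11 had a higher mean in Cav3.1 KO. Markers of endothelium had list means of 7.44 to 7.57 in WT, against 7.39 to 7.51 in the knockout. Against 0.288% of all probes tested, 1 of 14 endothelial markers was called, lower in Cav3.1 KO. It was Cldn5, a tight junction protein of brain endothelium, with a difference of -0.79 (SE 0.0922, limma adjusted p 0.0182) and WT arrays at 9.58 to 9.79, all above the knockout arrays at 8.67 to 9.11. The groups also did not overlap for Kdr (-0.19) and Tek (-0.12), which were lower, and for Sox17 (0.13), which was higher, without a call. With Cldn5 this made 4 of 14 endothelial markers, against 4.95% of all probes tested. For pericytes the list means were 6.87 to 6.98 and 6.87 to 6.92, for arterial smooth muscle 6.47 to 6.65 and 6.44 to 6.70, and for border macrophages 6.03 to 6.19 and 6.04 to 6.10. WT replicate 1 held the highest value of 4 of 7 macrophage markers and of 3 of 8 smooth muscle markers. Granule neuron markers had list means of 7.43 to 7.52 in WT, against 7.19 to 7.38 in the knockout. Of 10 tested, 2 were called lower, against 0.0898% of all probes tested. They were Rasl10a, by -0.68 (SE 0.0398, limma adjusted p 0.000605), and C1ql2, by -0.57 (SE 0.0509, limma adjusted p 0.0065). The groups did not overlap for 6 of 10, of which 5 were lower and Calb1 was higher, against 4.95% of all probes tested. All these marker lists, those of endothelium and granule neurons included, were chosen with earlier results of these data known. Their calls and their counts of groups that did not overlap are therefore no contrast to the 0 of 32 members. The part of each of these cell types in the differences of the members was not tested.

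Further genes of meningeal fibroblasts, listed apart from the members, gave a mixed picture. Of 22 tested, 0 passed the test over all probes by limma, and 3 had an unadjusted p under 0.05, against 8.1% of all probes tested. A higher mean in Cav3.1 KO was found for 12 and a lower one for 10, with a median difference of 0.0132. Their highest values were on WT replicate 1 for 9 of 22. The transcription factor gene Osr1 read 6.81, 6.56, 6.45 and 6.57 in WT and 6.35, 6.4, 6.28 and 6.38 in Cav3.1 KO (difference -0.24, SE 0.0718, limma adjusted p 0.340). Crabp2, a binding protein for retinoic acid, differed by -0.35 (SE 0.129), with 7.04 on WT replicate 1. Pdgfra, a receptor that also marks oligodendrocyte precursors, differed in the other direction, by 0.22 (SE 0.0574).

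The wider collagen pathway showed no called change. Of 32 other collagen chains tested, 15 had a higher and 17 a lower mean, with a median difference of -0.0014. By limma 0 passed, and 1 had an unadjusted p under 0.05, against 8.1% of all probes tested. WT replicate 1 held the highest value of 1 of these 32 chains, against 9.94% of all probes tested. Col16a1 had the smallest p of that list, with a difference of 0.25 (SE 0.0789, adjusted p 0.379). Of 9 further small leucine-rich proteoglycans 6 had a lower mean. Aspn, which encodes asporin, read 6.38, 6.33, 6.31 and 6.33 in WT and 6.11, 6.21, 6.16 and 6.20 in Cav3.1 KO, with no overlap, a difference of -0.17 (SE 0.0306) and a limma adjusted p of 0.0931. Bgn (biglycan) differed by -0.13 (SE 0.0931).

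Among 25 genes of collagen processing and crosslinking, 10 had a higher and 15 a lower mean, and 0 passed. In the limma fit 4 had an unadjusted p under 0.05, against 8.1% of all probes tested. Sparc, a collagen-binding glycoprotein that astrocytes and endothelium also make, read 9.66, 9.50, 9.34 and 9.30 in WT and 9.95, 9.76, 9.86 and 9.67 in Cav3.1 KO (difference 0.36, SE 0.0897, adjusted p 0.239). P4ha2, a prolyl hydroxylase subunit, differed by 0.20 (SE 0.0591). Of 15 matrix proteases and inhibitors 9 had a higher mean and 0 passed. By limma 3 of the 15 had an unadjusted p under 0.05, against 8.1% of all probes tested. They were Timp3, Timp2 (difference 0.23, SE 0.090) and Mmp17 (difference -0.16, SE 0.068). Timp3, the matrix-bound inhibitor of metalloproteinases, read 8.45, 8.37, 8.20 and 8.27 in WT and 8.83, 8.63, 9.05 and 8.84 in Cav3.1 KO, with no overlap and a difference of 0.52 (SE 0.0902, limma adjusted p 0.0859). Laminins, nidogens and basement membrane proteoglycans (4 of 14 with a higher mean) and collagen receptors (4 of 9) had median differences of -0.0149 and -0.0197. From either list 0 passed, and each had 1 gene with an unadjusted limma p under 0.05, against 8.1% of all probes tested. The collagen receptor gene Ddr2 differed by -0.14 (SE 0.0474).

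The share of members with a lower mean depended on which arrays were compared. Within scan set A (3 WT arrays and 1 Cav3.1 KO array) 25 of 32 members had a lower mean in Cav3.1 KO and the median difference was -0.14. Within scan set B (1 WT array and 3 Cav3.1 KO arrays) 11 of 32 had a lower mean and the median was 0.0365. With the set as a block 19 of 32 were lower, with a median of -0.0593. Without WT replicate 1, the array with the highest mean of the 8 matrix genes named above, 20 of 32 were lower and the median was -0.0174. None of the members was called in any of these comparisons. Nupr1, Islr, Slc6a20a, Ptgds, Slc22a6, Foxc1, Foxd1, Fbln1, Fmod and Asgr1 had a lower mean, and Col4a2 and Col5a1 a higher one, in all 21 alternatives run, whereas the other 20 members changed sign in at least 1.

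**Figure D5:**
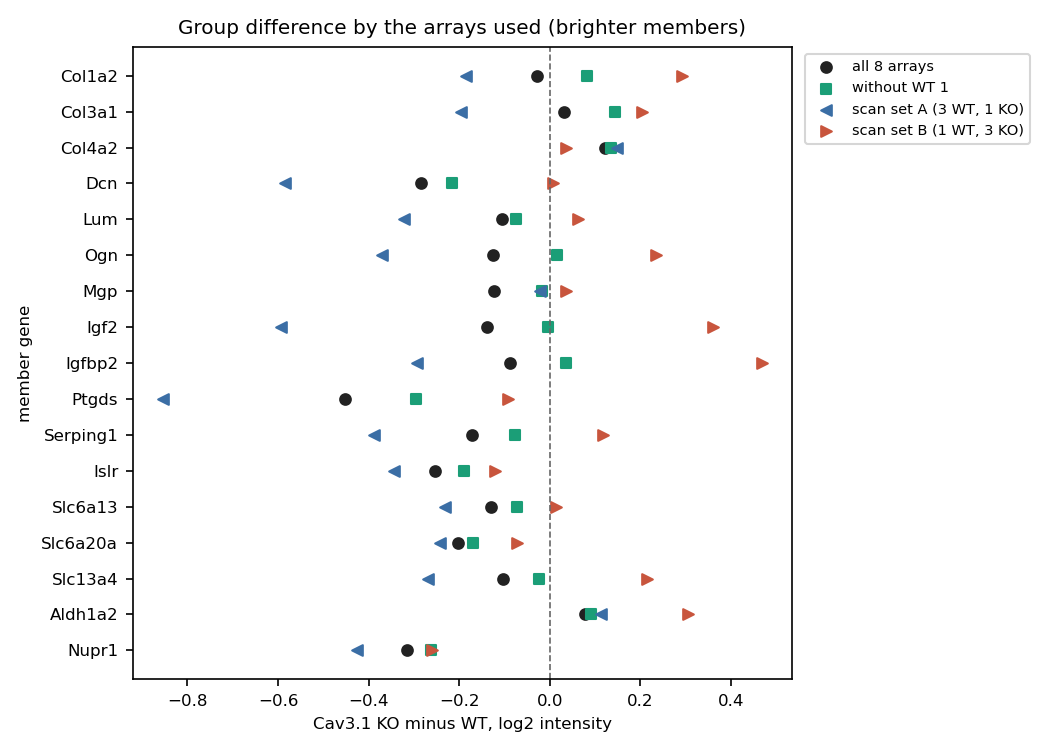
For the 17 brighter members, points give the Cav3.1 KO minus WT difference in log2 intensity with all 8 arrays, without WT replicate 1, and within each of the 2 scan sets. For Igf2 the points run from -0.59 in set A to 0.36 in set B, whereas those of Nupr1 stay between -0.43 and -0.26.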

How the data were processed

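RNA of 8 arrays (4 WT, 4 Cav3.1 KO) was amplified to aminoallyl RNA and coupled to Cy5, per the labels' protocols. The deposited scanner files give a median spot intensity merged from 3 scan gains, per the file headers, and the method of merging is not known here. A second intensity headed as background followed its own spot (r of the logarithms 0.994 to 0.996) and was not subtracted. The deposited value table, an intensity with a median of 25 on every array, was 0 close to the mean blank spot and served as an alternative.

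Spot intensities were corrected with normexp (offset 50), taken to log2 and quantile normalised. The offset makes differences of dim probes too small. Of 23473 probes, 2239 detected on fewer than 4 arrays and 84 more with a spot marked as not good were left out. A symbol was given for 20690 probes, several for 0 and none for 2783. Groups were compared by limma 3.58.1 in R 4.3.3 with Benjamini-Hochberg adjustment over 21150 probes, checked on simulated data. Members, lists and settings were chosen with earlier results of these data known. Named genes are the 32 members, Cacna1g, up to 3 genes of smallest p in each other list, and the 10 genes most like the mean of 8 matrix genes with an SD of at least 0.3. Marker genes named for other tissues beside this rule (Ttr, Prox1, Calb1, Tek) were chosen after their values were seen. The alternatives changed the background correction, offset, scaling, filter, source of values, blocks, probe and arrays.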

Additional observations from a re-analysis of the deposited data

Results flagged for a closer look

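Of 64 sets of 4 arrays (32 members in 2 groups), 3 held an array far from the other 3, with a gap above Dixon's 95% critical value. Chance alone gives about 1 in 20 such sets. Col1a1 in WT was 6.12 on replicate 1 against 6.05 to 6.06 on the others, a gap of 0.860 of its range on a dim probe. Col5a1 in WT was 6.28 on replicate 1 against 6.07 to 6.10, a gap of 0.836. Aldh1a2 in Cav3.1 KO was 7.12 on replicate 4 against 7.70 to 7.74, a gap of 0.925, on the array that also had the lowest choroid plexus markers.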

How the results depend on the processing

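None of the 32 members was called under any of the 21 alternatives, and 12 members kept their sign in all of them. The median difference of the members was -0.0904. It was -0.21 after plain blank subtraction and -0.26 in the deposited value table, scales that stretch dim genes, and 0.0365 within scan set B. With single arrays left out it ran from -0.127 to -0.0174. The probes called over the whole array were 61. They were 36 with median scaling, 31 in the value table, 23 with the scan set as a block, 0 within scan set A and 0 within scan set B, each with 1 array on a side that was assumed to vary like the others. With single arrays left out they ran from 16 to 49, and members called stayed at 0. Chip numbers in the file names, examined after the data were seen, set WT replicate 3 and Cav3.1 KO replicate 4 apart, and within the other 6 arrays 7 probes were called. The replicate block gave 8 calls and 0 members. The numbers share no source in the labels, deviations of same-numbered arrays correlated at -0.115 to 0.011, and 0 of 8 arrays correlated best with its own number. The number of arrays and the closeness of the 15 dim members to the blank level limit what could be detected.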

Other observations

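Genes outside the member list that followed the matrix genes were sought among 227 established genes with an SD of at least 0.3 over the 8 arrays. The 10 closest to the mean of the 8 matrix genes were Elovl7, Tnnt1, Pcp4, Lbp, Kl, Ccl19, Mia, Cox8b, Prr32 and Opalin, with Pearson's r from 0.694 to 0.800, given as a description over 8 arrays that share their dissections. Elovl7, an elongase of fatty acids, read 8.13, 8.09, 7.6 and 7.44 in WT and 7.38, 7.88, 7.78 and 7.38 in Cav3.1 KO. Kl, which encodes klotho and is made by the choroid plexus, was highest on WT replicate 2 at 7.84. Pcp4, a calmodulin-binding protein of neurons, read 12.41, 12.29, 11.59 and 11.61 in WT and 11.25, 12.52, 12.37 and 11.32 in Cav3.1 KO. Opalin, a myelin gene, was highest on WT replicate 1 at 10.74 and lowest on Cav3.1 KO replicate 1 at 9.52. The chemokine gene Ccl19 read 7.45 on WT replicate 1 and 6.37 to 7.01 on the other arrays. None of the 10 passed the test between the groups, and their limma adjusted p-values ran from 0.324 to 0.995.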
